A study of Mus musculus with 8 samples.

Results

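The 31 genes described here encode proteins of mitotic entry, the spindle checkpoint, the anaphase machinery, centromeres, chromosome condensation, the spindle and cytokinesis. They were taken from a list of gene symbols, without cyclins and without kinesins other than Cenpe. No measured value enters that rule, though the list was drawn up with earlier results of these data known. All 31 were among the 19938 mouse genes that the array annotation names by 1 symbol. Each gene was read from its brightest probe set by mean over the 8 samples. RNA came from mouse embryonic fibroblasts of 2 lines, line B (MEF16) and line A (MEF10). In each line, 2 samples were labelled as having had tamoxifen and expressing PKM1, and 2 as having had none and expressing PKM2. PKM1 and PKM2 are alternative isoforms of the muscle-type pyruvate kinase, the enzyme that makes pyruvate in the last step of glycolysis. The labels name no allele and no recombinase through which tamoxifen acts, and give no dose, time or passage. Every sample labelled PKM1 had tamoxifen, so the drug and the isoform cannot be told apart in any comparison.

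Cells entering mitosis condense their chromosomes, build a spindle and attach each chromosome to it through its kinetochores. The spindle checkpoint holds back the anaphase-promoting complex, a ubiquitin ligase, until all kinetochores are attached. The ligase then has securin destroyed, which frees separase to cut the cohesin that ties sister chromatids together, and the cell divides by cytokinesis. Most of these genes are transcribed late in the cell cycle, so in a fibroblast culture their RNA is known as a marker of cells that are dividing. In bulk RNA, fewer dividing cells and less RNA per dividing cell cannot be told apart.

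The values were log2 expression after robust multi-array averaging (RMA), and a difference of 1 on that scale is 2-fold. The median over all genes lay between 7.31 and 7.39 in every sample. Of the 31 mitosis genes, 30 stood above 7.39 in all 8 samples, and Espl1 was the exception, at 6.58 to 7.15. Pairs of samples of 1 group correlated across all genes at r = 0.989 with tamoxifen and r = 0.991 without it in line B, and at r = 0.997 with tamoxifen and r = 0.996 without it in line A. Fibroblast markers fitted the label, with 9 of 10 above 7.39 in every sample and Lum the exception. Of the markers of other cells, none was above 7.39 in all 8 samples, but Cd68 was in 7 and Lyz2 in 6 (8 macrophage and blood markers), Krt8 in 6 (8 epithelial and mammary markers) and 1 of 6 endothelial markers in 1. Lyz2, the macrophage lysozyme, was at 9.71 and 9.08 with tamoxifen and 9.25 and 9.22 without it in line B, against 7.97 and 7.77 with tamoxifen and 6.97 and 7.23 without it in line A. It was higher in line B than in line A by 1.53 with tamoxifen (SE 0.19, adjusted p = 0.0147 in limma) and by 2.14 without it (SE 0.19, adjusted p = 0.00406). Its part in the comparisons between the lines was not tested. Some label fields speak of mammary tumour tissue, while the titles and source names give fibroblasts. No label tells if samples within a group came from different cultures, so the p-values rest on a spread between samples that could be technical alone.

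Mitosis genes were lower with tamoxifen. Over both lines, 13 of the 31 fell (41.9%) at an adjusted p under 0.05, none rose and 18 did not pass; by the same rule 0.512% of all genes tested fell, 0.808% rose and 1.32% changed in either direction. The test was limma's moderated test with the line as a term and Benjamini-Hochberg adjustment across all 19938 genes. The 13 that fell were Cdc25c, Bub1, Bub1b, Ttk, Cenpa, Cenpn, Birc5, Ncaph, Mki67, Prc1, Anln, Racgap1 and Ect2. Their falls ran between 0.35 and 0.70 on the log2 scale, or 1.28- to 1.62-fold. The median change of all 31 was -0.41, against -0.01 over all genes, and 30 of 31 had a negative change (96.8%; 55.4% of all genes). At an unadjusted p under 0.05 stood 29 of the 31, against 9.85% of all genes. In 17 of the 31 (54.8%), every sample with tamoxifen lay below every sample without it, which held for 2.74% of all genes; none of the 31 had the opposite layout, seen in 2.56% of all genes. The 17 were the 13 that fell and Aurka, Foxm1, Mad2l1 and Tpx2. The median mitosis gene in each sample stood at 8.94 and 9.00 with tamoxifen against 9.34 and 9.20 without it in line B, and at 8.81 and 8.83 with tamoxifen against 9.36 and 9.38 without it in line A.

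With array weights, which give uneven arrays less weight, 27 of the 31 fell and Pttg1 rose, while calls over all genes also grew. Among the fits that left out 1 sample, the number of falls moved most with the line A samples. It was 3 without either one of the line A samples with tamoxifen. It was 6 without line A replicate 1 and 4 without line A replicate 2 of those lacking tamoxifen. Leaving out a line B sample gave 12 or 15 falls without replicate 1 or 2 of those with tamoxifen. It gave 11 or 18 without replicate 1 or 2 of those lacking it. The shares of all genes that fell in these fits are not given here. Of the 13 genes, Ect2 and Mki67 kept an adjusted p under 0.05 in limma in all 16 alternative settings, leaving out each sample included. Cdc25c and Cenpn each lost it once, Cdc25c without line A replicate 1 with tamoxifen and Cenpn without line A replicate 2 with tamoxifen.

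**Figure D1:**
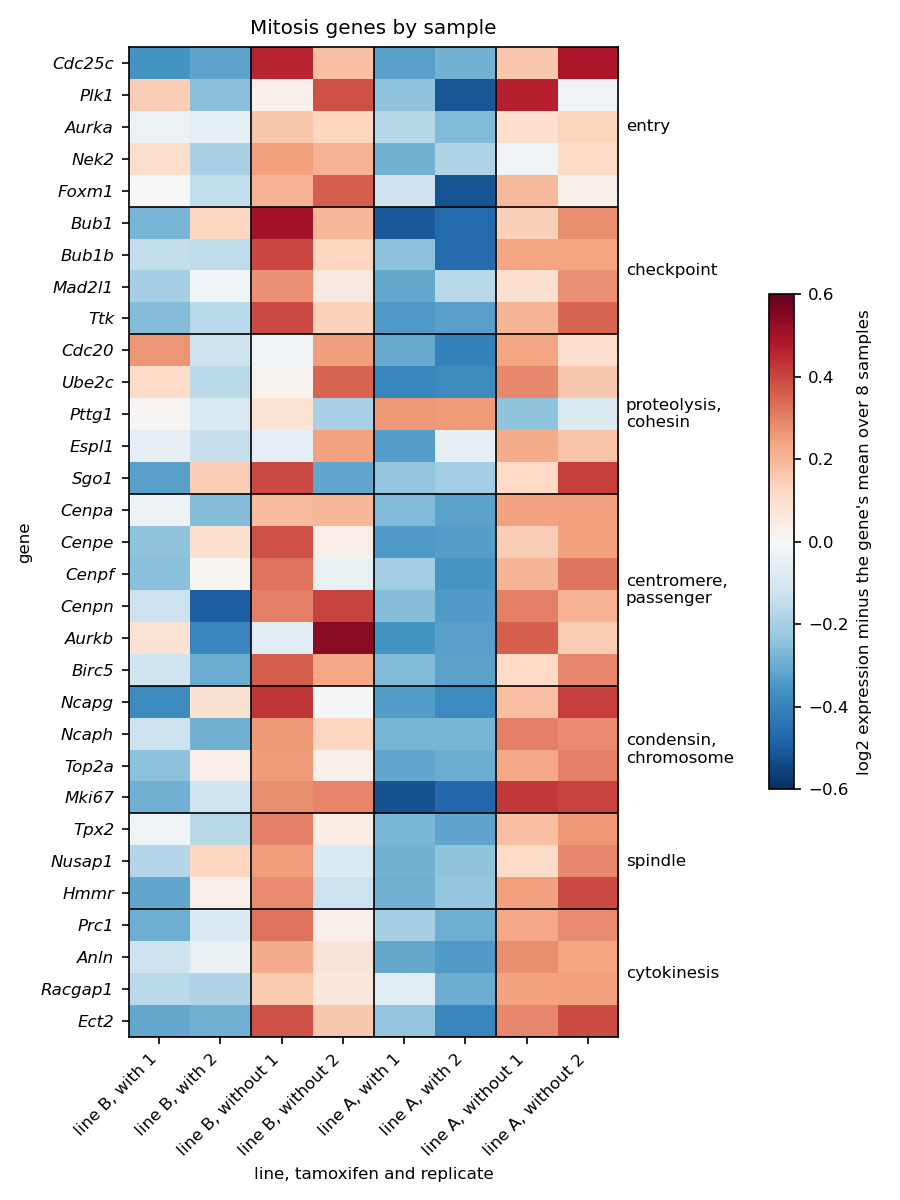
Log2 expression of each of the 31 mitosis genes (rows, grouped by role) in each of the 8 samples (columns), minus the gene's mean over the 8 samples; red is above and blue below that mean. The columns with tamoxifen are mostly blue and those without mostly red, Pttg1 runs the other way in line A, and the line B columns vary more within a group than the line A columns.

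**Figure D2:**
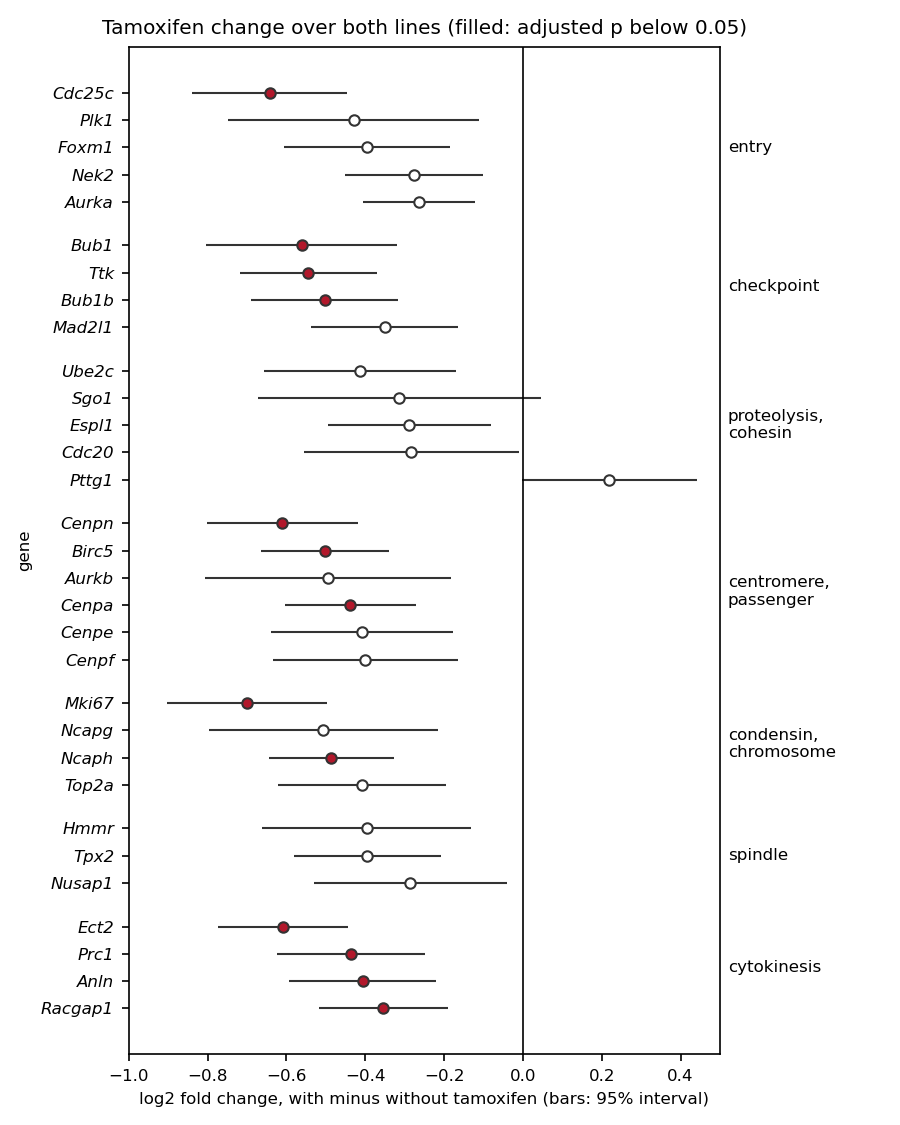
Log2 fold change with minus without tamoxifen over both lines for each gene (points) with its 95% interval (bars), grouped by role; filled points have an adjusted p under 0.05 in limma. The intervals of 29 genes leave out 0, those of Sgo1 and Pttg1 hold it, and Pttg1 is the gene to the right of 0.

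Promoters of genes expressed in mitosis are known to carry the cell cycle genes homology region (CHR), to which the DREAM complex binds as a repressor in resting cells and B-MYB and FOXM1 complexes bind in dividing cells. They also carry CCAAT boxes, bound by NF-Y, and E2F sites. RefSeq's promoter table (GRCm38.p6) held 29 promoters of 27 of the 31 genes. Cdc25c, Foxm1, Aurkb and Tpx2 had no entry. The 250 bases before the listed start were searched on both strands for the CHR letters TTTGAA, their variant TTTAAA, the letters CCAAT and the E2F core GGCGGGA, none of which contains another. TTTGAA was found in 10 of the 29 promoters (34.5%), against 16.0% of all 32851 promoters in the table. TTTAAA was found in 4 (13.8%), against 12.1% of all. CCAAT was found in 22 (75.9%), against 33.8%, and GGCGGGA in 7 (24.1%), against 9.75%. Ect2 and Prc1 had 2 overlapping promoters each, so a site of theirs can count more than once. By gene, TTTGAA was found in 9 of the 27, TTTAAA in 4, CCAAT in 20 and GGCGGGA in 6. The comparison was not matched for base composition, and a match is a description of letters, not a bound site. Stretches of 120 bases upstream of 7 genes are shown, picked after the values were seen, to set genes that fell beside genes that did not pass. Mki67, Cenpn, Ttk, Birc5 and Ncaph fell, with the smallest p among fallen genes that had a full 120-base stretch upstream of the annotated gene. Cdc20 and Plk1 did not pass and were chosen by hand. In the 250 bases searched, TTTGAA was found in Cenpn, Ect2, Mki67 and Prc1, which fell. It was also found in Cdc20, Espl1, Ncapg, Top2a and Ube2c, which did not pass. Capitals mark matches on either strand. The Mki67 stretch lies at chr7:135716451-135716570, minus strand, that of Cenpn at chr8:116921596-116921715, plus strand, that of Ttk at chr9:83834531-83834650, plus strand, that of Birc5 at chr11:117849117-117849236, plus strand, that of Ncaph at chr2:127133955-127134074, minus strand, that of Cdc20 at chr4:118437344-118437463, minus strand and that of Plk1 at chr7:122159315-122159434, plus strand, all upstream of the annotated gene and read 5′ to 3′ on the gene's strand.
Mki67: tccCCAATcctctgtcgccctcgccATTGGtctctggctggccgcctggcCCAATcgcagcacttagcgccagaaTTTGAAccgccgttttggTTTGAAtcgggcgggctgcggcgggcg
Cenpn: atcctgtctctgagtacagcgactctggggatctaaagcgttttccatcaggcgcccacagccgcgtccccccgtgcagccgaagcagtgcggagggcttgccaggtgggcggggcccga
Ttk: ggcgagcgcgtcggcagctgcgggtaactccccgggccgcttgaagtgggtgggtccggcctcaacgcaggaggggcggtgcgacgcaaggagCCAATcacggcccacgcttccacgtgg
Birc5: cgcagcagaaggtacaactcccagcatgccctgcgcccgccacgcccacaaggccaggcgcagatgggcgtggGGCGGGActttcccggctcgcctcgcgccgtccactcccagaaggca
Ncaph: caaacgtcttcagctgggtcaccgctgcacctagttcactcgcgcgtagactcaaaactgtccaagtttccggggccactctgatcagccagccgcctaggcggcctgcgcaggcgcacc
Cdc20: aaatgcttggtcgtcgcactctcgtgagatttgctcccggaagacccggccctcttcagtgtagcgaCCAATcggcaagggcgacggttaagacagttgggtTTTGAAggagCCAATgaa
Plk1: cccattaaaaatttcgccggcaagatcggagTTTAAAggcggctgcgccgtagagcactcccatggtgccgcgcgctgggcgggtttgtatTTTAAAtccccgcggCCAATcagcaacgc
The Mki67 stretch holds 2 CHR matches and 3 CCAAT matches, that of Ttk 1 CCAAT match and that of Birc5 1 E2F core. Those of Cenpn and Ncaph hold none of the letters searched. Each stretch covers only part of the 250 bases searched. That of Cenpn ends 25 bases before the start, which leaves out a CHR match at 9 and a CCAAT match at 18 bases. Also outside are a CCAAT match of Ttk at 28 bases and a CHR variant match of Birc5 at 220 bases. Among the genes that did not pass, the Cdc20 stretch holds 1 CHR and 2 CCAAT matches. The Plk1 stretch holds 2 matches to the CHR variant and 1 CCAAT match.

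Among the 5 genes of mitotic entry, only Cdc25c fell, and the median change was -0.40. Cdc25c encodes the phosphatase that removes inhibitory phosphates from the kinase that starts mitosis. Cdc25c measured 7.52 and 7.56 with tamoxifen against 8.34 and 8.06 without it in line B, and 7.55 and 7.60 with tamoxifen against 8.04 and 8.37 without it in line A. The 4 samples with tamoxifen lay within 0.08 of each other, all below the 4 without it, and the gene fell by 0.64 on the log2 scale (SE 0.09, adjusted p = 0.00776). Plk1 encodes polo-like kinase, which acts on centrosomes, kinetochores and the cleavage furrow. In line B, Plk1 stood at 8.68 and 8.28 with tamoxifen against 8.56 and 8.91 without it; in line A it stood at 8.29 and 8.02 with tamoxifen against 9.00 and 8.51 without it. The groups overlapped, and its change of -0.43 (SE 0.14, adjusted p = 0.286) did not pass in limma. Aurora kinase A, encoded by Aurka, matures centrosomes and the spindle poles. Aurka measured 8.72 and 8.70 with tamoxifen against 8.92 and 8.88 without it in line B, and 8.59 and 8.49 with tamoxifen against 8.86 and 8.89 without it in line A. Every sample with tamoxifen was below every sample without it, by as little as 0.13, and the change was -0.26 (SE 0.06, adjusted p = 0.1), not passing. Foxm1 encodes a transcription factor that switches on genes of this phase. In line B, Foxm1 stood at 8.25 and 8.11 with tamoxifen against 8.47 and 8.62 without it; in line A it stood at 8.13 and 7.74 with tamoxifen against 8.45 and 8.29 without it. Its groups did not overlap either, and the change of -0.40 (SE 0.09, adjusted p = 0.0912) did not pass. Nek2 encodes a kinase that frees the centrosomes from each other. Nek2 measured 8.14 and 7.84 with tamoxifen against 8.28 and 8.24 without it in line B, and 7.75 and 7.85 with tamoxifen against 8.01 and 8.15 without it in line A. Within each line the treatments were apart, but line B replicate 1 with tamoxifen was above line A replicate 1 without it, and the change was -0.28 (SE 0.08, adjusted p = 0.181), not passing.

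Of the 4 genes of the spindle checkpoint, Bub1, Bub1b and Ttk fell and Mad2l1 did not pass; in all 4 the samples with tamoxifen lay below those without. Ttk encodes MPS1, the kinase that starts checkpoint signalling at unattached kinetochores. Ttk measured 8.90 and 8.99 with tamoxifen against 9.55 and 9.30 without it in line B, and 8.81 and 8.83 with tamoxifen against 9.36 and 9.50 without it in line A. Ttk fell by 0.54 on the log2 scale (SE 0.08, adjusted p = 0.00921), and its highest sample with tamoxifen was 0.30 below its lowest sample without. Bub1 encodes a kinetochore kinase of the checkpoint. In line B, Bub1 stood at 9.43 and 9.84 with tamoxifen against 10.21 and 9.91 without it; in line A it stood at 9.21 and 9.24 with tamoxifen against 9.85 and 9.99 without it. Its line B samples with tamoxifen were 0.41 apart and the upper of them came within 0.01 of the lowest sample without tamoxifen. Bub1 fell by 0.56 on the log2 scale (SE 0.11, adjusted p = 0.0376), a call that was lost in 9 of the 16 alternative settings. Bub1b encodes BUBR1, a part of the complex that inhibits the anaphase-promoting complex. Bub1b measured 8.45 and 8.44 with tamoxifen against 9.00 and 8.72 without it in line B, and 8.35 and 8.13 with tamoxifen against 8.83 and 8.83 without it in line A. The gap between treatments was 0.27, and Bub1b fell by 0.50 on the log2 scale (SE 0.08, adjusted p = 0.0198). Mad2l1 encodes MAD2, which captures CDC20 in that inhibitory complex. In line B, Mad2l1 stood at 10.76 and 10.94 with tamoxifen against 11.24 and 11.02 without it; in line A it stood at 10.66 and 10.80 with tamoxifen against 11.06 and 11.24 without it. Its change was -0.35 (SE 0.08, adjusted p = 0.0927), with the closest samples of the 2 treatments 0.08 apart. The median change of the 4 genes was -0.52.

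None of the 5 genes of anaphase proteolysis and cohesin release passed over both lines, and in none of them were the samples with tamoxifen all below those without. Cdc20 encodes the activator that brings substrates to the anaphase-promoting complex. Cdc20 measured 9.04 and 8.65 with tamoxifen against 8.75 and 9.02 without it in line B, and 8.47 and 8.36 with tamoxifen against 9.01 and 8.87 without it in line A. In line A the treatments were at least 0.40 apart, while in line B the 2 samples with tamoxifen lay on either side of the 2 without. The change over both lines was -0.28 (SE 0.12, adjusted p = 0.479). Ube2c encodes the ubiquitin-conjugating enzyme that works with this ligase. In line B, Ube2c stood at 9.45 and 9.18 with tamoxifen against 9.36 and 9.69 without it; in line A it stood at 8.95 and 8.96 with tamoxifen against 9.63 and 9.50 without it. It showed the same layout, apart in line A and overlapping in line B, with a change of -0.41 (SE 0.11, adjusted p = 0.134). Espl1 encodes separase, the protease that cuts cohesin. Espl1 measured 6.85 and 6.78 with tamoxifen against 6.85 and 7.15 without it in line B, and 6.58 and 6.86 with tamoxifen against 7.14 and 7.08 without it in line A. In line B the treatments met, with 6.8545 as the highest with tamoxifen and 6.8547 as the lowest without it, in line A they were 0.22 apart, and the change of -0.29 (SE 0.09, adjusted p = 0.262) did not pass. Sgo1 encodes shugoshin, which protects cohesin at centromeres. In line B, Sgo1 stood at 7.91 and 8.39 with tamoxifen against 8.64 and 7.93 without it; in line A it stood at 8.00 and 8.03 with tamoxifen against 8.36 and 8.66 without it. Its line B samples spread over 0.72, with both the lowest with tamoxifen and the lowest without it near 7.9, and the change was -0.31 (SE 0.16, adjusted p = 0.592).

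Pttg1, which encodes securin, the inhibitor of separase, was the 1 gene of the 31 with a positive change. Pttg1 measured 9.79 and 9.70 with tamoxifen against 9.87 and 9.59 without it in line B, and 10.04 and 10.04 with tamoxifen against 9.54 and 9.70 without it in line A. In line A both samples with tamoxifen were above both without, by at least 0.34, a layout seen in 21.3% of all genes in line A and 12.0% in line B; in line B the samples overlapped. The change over both lines was 0.22 (SE 0.10, adjusted p = 0.515), with a 95% interval of -0.00 to 0.44. It did not pass, and in line A alone it was 0.42 (SE 0.12) without passing (adjusted p = 0.251 in limma).

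Of the 6 centromere and chromosomal passenger genes, Cenpa, Cenpn and Birc5 fell, and the median change was -0.47. Cenpa encodes the histone H3 variant that marks centromeres. Cenpa measured 8.69 and 8.46 with tamoxifen against 8.91 and 8.92 without it in line B, and 8.45 and 8.40 with tamoxifen against 8.96 and 8.96 without it in line A. All 4 samples without tamoxifen lay within 0.05 of each other, and Cenpa fell by 0.44 on the log2 scale (SE 0.08, adjusted p = 0.0214). Cenpn encodes a protein that binds the CENP-A nucleosome. In line B, Cenpn stood at 8.47 and 8.11 with tamoxifen against 8.90 and 9.00 without it; in line A it stood at 8.34 and 8.26 with tamoxifen against 8.90 and 8.81 without it. The treatments were at least 0.34 apart, and Cenpn fell by 0.61 on the log2 scale (SE 0.09, adjusted p = 0.00863). Birc5 encodes survivin, which places the passenger complex at centromeres. Birc5 measured 9.50 and 9.33 with tamoxifen against 9.99 and 9.86 without it in line B, and 9.36 and 9.30 with tamoxifen against 9.74 and 9.91 without it in line A. Birc5 fell by 0.50 on the log2 scale (SE 0.07, adjusted p = 0.00971), with the treatments apart by 0.24. Aurkb encodes aurora kinase B, the enzyme of the same complex. In line B, Aurkb stood at 8.65 and 8.17 with tamoxifen against 8.50 and 9.10 without it; in line A it stood at 8.20 and 8.23 with tamoxifen against 8.92 and 8.71 without it. Its line B samples differed by 0.48 with tamoxifen and by 0.60 without, the groups overlapped, and the change of -0.49 (SE 0.14, adjusted p = 0.18) did not pass. Cenpe encodes the motor protein that carries chromosomes to the spindle equator. Cenpe measured 9.86 and 10.20 with tamoxifen against 10.49 and 10.14 without it in line B, and 9.76 and 9.77 with tamoxifen against 10.25 and 10.35 without it in line A. Its upper line B sample with tamoxifen was above a line B sample without it, and the change was -0.41 (SE 0.10, adjusted p = 0.117), not passing. Cenpf encodes a large protein of the outer kinetochore. In line B, Cenpf stood at 8.74 and 9.00 with tamoxifen against 9.32 and 8.94 without it; in line A it stood at 8.78 and 8.64 with tamoxifen against 9.19 and 9.31 without it. It overlapped in line B in the same way, with a change of -0.40 (SE 0.11, adjusted p = 0.134), not passing.

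Of the 4 genes of condensin and mitotic chromosomes, Mki67 and Ncaph fell, and the median change was -0.50. Mki67 encodes Ki-67, which coats mitotic chromosomes and is the usual marker of proliferating cells. Mki67 measured 9.53 and 9.70 with tamoxifen against 10.10 and 10.12 without it in line B, and 9.30 and 9.35 with tamoxifen against 10.24 and 10.23 without it in line A. The treatments were at least 0.40 apart, and the 2 line A samples with tamoxifen were the lowest of all. Mki67 fell by 0.70 on the log2 scale (SE 0.09, adjusted p = 0.00587), or 1.62-fold, which was the largest change of the 31 genes. Ncaph and Ncapg encode subunits of condensin I, the ring complex that compacts chromosomes. In line B, Ncaph stood at 8.95 and 8.79 with tamoxifen against 9.34 and 9.20 without it; in line A it stood at 8.80 and 8.80 with tamoxifen against 9.38 and 9.36 without it. Ncaph fell by 0.49 on the log2 scale (SE 0.07, adjusted p = 0.0101), and its treatments did not overlap. Ncapg measured 9.05 and 9.52 with tamoxifen against 9.86 and 9.42 without it in line B, and 9.10 and 9.05 with tamoxifen against 9.61 and 9.85 without it in line A. For Ncapg, line B replicate 2 with tamoxifen lay above line B replicate 2 without it, and the change of -0.51 (SE 0.13, adjusted p = 0.125) did not pass. Top2a encodes topoisomerase II alpha, which untangles sister chromatids. In line B, Top2a stood at 10.87 and 11.15 with tamoxifen against 11.37 and 11.14 without it; in line A it stood at 10.80 and 10.82 with tamoxifen against 11.35 and 11.41 without it. It overlapped by 0.01 in line B, and its change of -0.41 (SE 0.10, adjusted p = 0.087) did not pass. Top2a was the only one of the 31 with a further probe set, which was dim at 4.44 to 5.23 and was not used.

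The 3 spindle genes had a median change of -0.39, and none passed. Tpx2 encodes the activator of aurora kinase A on spindle microtubules. Tpx2 measured 9.41 and 9.27 with tamoxifen against 9.74 and 9.48 without it in line B, and 9.16 and 9.12 with tamoxifen against 9.61 and 9.70 without it in line A. Its treatments were 0.07 apart at the closest, and its change of -0.39 (SE 0.08, adjusted p = 0.0562) was the nearest to the threshold among the genes that did not pass. Nusap1 encodes a protein that bundles spindle microtubules. In line B, Nusap1 stood at 8.92 and 9.22 with tamoxifen against 9.34 and 9.01 without it; in line A it stood at 8.81 and 8.85 with tamoxifen against 9.21 and 9.38 without it. Hmmr encodes a hyaluronan receptor that also acts at spindle poles. Hmmr measured 9.47 and 9.82 with tamoxifen against 10.07 and 9.65 without it in line B, and 9.49 and 9.55 with tamoxifen against 10.03 and 10.18 without it in line A. Both overlapped in line B and did not pass, with changes of -0.29 (SE 0.11, adjusted p = 0.382) for Nusap1 and -0.40 (SE 0.12, adjusted p = 0.218) for Hmmr.

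All 4 cytokinesis genes fell, and in each the samples with tamoxifen lay below all samples without it. Ect2 encodes the exchange factor that activates RhoA at the cell equator. Ect2 measured 9.32 and 9.34 with tamoxifen against 10.00 and 9.79 without it in line B, and 9.39 and 9.23 with tamoxifen against 9.91 and 10.01 without it in line A. The treatments were 0.40 apart, and Ect2 fell by 0.61 on the log2 scale (SE 0.07, adjusted p = 0.0043), the smallest adjusted p of the 31 genes. Racgap1 encodes the centralspindlin subunit that binds ECT2. In line B, Racgap1 stood at 7.70 and 7.68 with tamoxifen against 8.02 and 7.93 without it; in line A it stood at 7.79 and 7.56 with tamoxifen against 8.10 and 8.11 without it. Racgap1 fell by 0.35 on the log2 scale (SE 0.07, adjusted p = 0.0487). Prc1 encodes the protein that cross-links microtubules of the central spindle. Prc1 measured 8.94 and 9.14 with tamoxifen against 9.56 and 9.26 without it in line B, and 9.03 and 8.94 with tamoxifen against 9.46 and 9.51 without it in line A. Prc1 fell by 0.44 on the log2 scale (SE 0.08, adjusted p = 0.0372). Anln encodes anillin, the scaffold of the contractile ring. In line B, Anln stood at 10.44 and 10.52 with tamoxifen against 10.79 and 10.64 without it; in line A it stood at 10.26 and 10.23 with tamoxifen against 10.84 and 10.80 without it. Anln fell by 0.41 on the log2 scale (SE 0.08, adjusted p = 0.0475). The closest samples of the 2 treatments were 0.12 apart for Prc1, 0.12 for Anln and 0.14 for Racgap1. The call for Ect2 held in all 16 alternative settings, while it was lost in 8 of the 16 for Prc1, in 9 for Anln and in 12 for Racgap1.

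**Figure D3:**
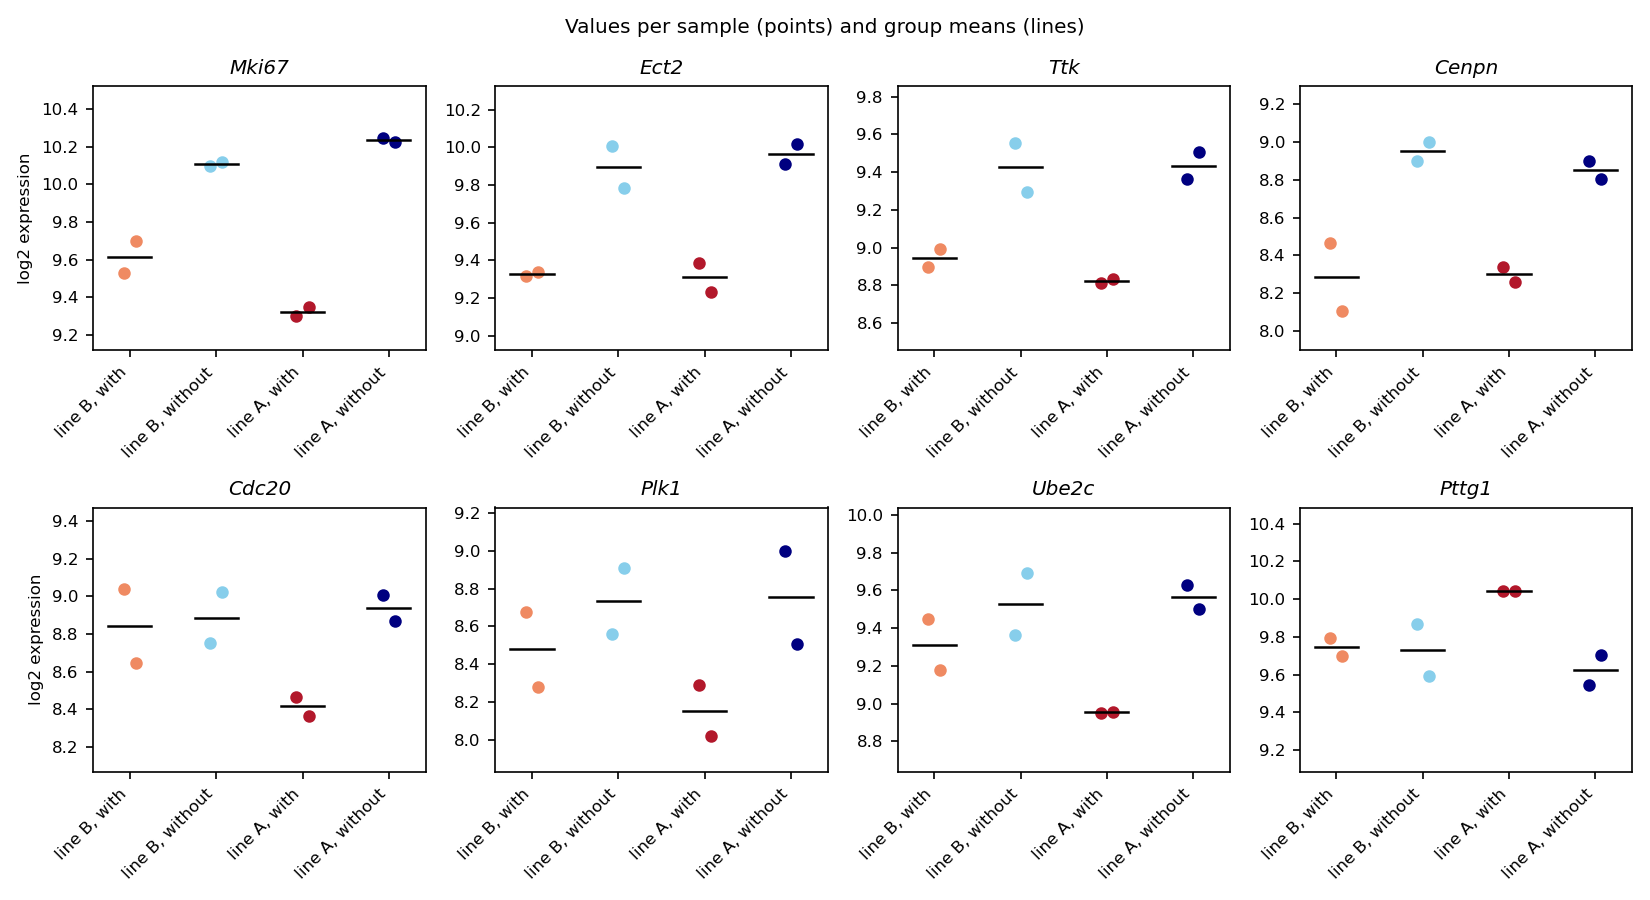
Log2 expression of 8 of the genes in each sample (points) with the group means (lines); each panel has its own axis, which does not start at 0. Mki67, Ect2, Ttk and Cenpn are lower with tamoxifen in both lines; Cdc20, Plk1, Ube2c and Pttg1 overlap between treatments in line B.

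A wider list of 107 measured mitosis genes outside these 31 was also lower with tamoxifen at its median. Of the 107, 12 fell over both lines (11.2%, against 0.512% of all genes), none rose and 95 did not pass. The median change was -0.17, and 91 were negative, as were 55.4% of all genes. In 30 of the 107 (28.0%, against 2.74% of all genes), all samples with tamoxifen lay below all without. The 6 with the smallest p were Knstrn, Melk, Fbxo5, Cdca8, Aspm and Nuf2. Knstrn, which encodes a kinetochore protein also called kinastrin, fell by 0.43 (SE 0.07, adjusted p = 0.0119) and Melk, which encodes a kinase high in dividing cells, by 0.52 (SE 0.08, adjusted p = 0.0158). Fbxo5, which encodes EMI1, an inhibitor of the anaphase-promoting complex, fell by 0.52 (SE 0.09, adjusted p = 0.0205). Cdca8, which encodes borealin of the passenger complex, fell by 0.39 (SE 0.07, adjusted p = 0.021). Aspm, which encodes a spindle pole protein, fell by 0.58 (SE 0.10, adjusted p = 0.0278), and Nuf2, which encodes a subunit of the NDC80 complex that binds microtubules, by 0.52 (SE 0.10, adjusted p = 0.0318). By role, 5 of 22 spindle and centrosome genes, 2 of 2 passenger genes, 2 of 15 entry genes, 1 of 6 condensin genes, 1 of 26 centromere genes and 1 of 24 proteolysis and cohesin genes fell. None of the 8 further checkpoint or 4 further cytokinesis genes did. Beside these changes, the median change of the cell type markers was 0.10 for macrophage and blood, 0.03 for endothelial and -0.03 for epithelial markers, with none passing, and -0.02 for fibroblast markers, of which Dcn and Lum rose. The mean level of the 8 macrophage and blood markers was 7.14 to 7.16 with tamoxifen against 6.96 to 7.02 without it in line B, and 6.57 to 6.63 with tamoxifen against 6.47 to 6.56 without it in line A. Its part in the results was not tested.

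Fewer of the mitosis genes passed within each line, where a group holds 2 samples. In line B, 0 of 31 fell in limma, against 0 of all 19938 genes that fell and 4 that rose (0.0201%). At an unadjusted p under 0.05 stood 17 of the 31 (54.8%) in line B, against 4.82% of all genes. The median change was -0.28 in line B, against -0.01 over all genes. In line A, 3 of 31 fell, Mki67, Anln and Ect2 (9.68%; 0.1% of all genes fell, 0.401% rose and 0.502% changed in either direction), and the median change was -0.54, against -0.02 over all genes. At an unadjusted p under 0.05 stood 30 of 31 in line A, against 8.1% of all genes. The calls in line A were not stable when 1 sample of either line was left out, and all groups share 1 estimate of the spread. The median change in line A stayed between -0.57 and -0.51 in those fits. Both samples with tamoxifen were below both without in 19 of the 31 genes in line B (61.3%; 12.9% of all genes), and in 30 of 31 in line A (96.8%; 26.2% of all genes). Each of the 19 was also among the 30.

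Taking the line effects gene by gene, the changes with the smallest p in line B were those of Cenpn at -0.67 (SE 0.13), Ect2 at -0.57 (SE 0.11) and Mki67 at -0.49 (SE 0.09), each with an adjusted p of 0.216 in limma. In line A, Mki67 fell by 0.91 (SE 0.09, adjusted p = 0.0119), Anln by 0.58 (SE 0.09, adjusted p = 0.0454) and Ect2 by 0.65 (SE 0.11, adjusted p = 0.0482) in limma. The sign agreed between the lines for all 31 genes, and for 59.2% of all genes. The change was more negative in line A for 27 of the 31 (87.1%; 51.1% of all genes), and Cdc25c, Cenpn, Birc5 and Pttg1 were the exceptions. By role, the median change was -0.13 in line B and -0.49 in line A for the proteolysis and cohesin genes, and -0.21 in line B and -0.52 in line A for the spindle genes. It was -0.42 in line B and -0.60 in line A for the checkpoint genes and -0.36 in line B and -0.54 in line A for the centromere and passenger genes. It was -0.38 in line B and -0.61 in line A for the condensin and chromosome genes, -0.32 in line B and -0.54 in line A for the cytokinesis genes, and -0.27 in line B and -0.43 in line A for the entry genes. Across the 31 genes the changes in line B and line A correlated at Pearson's r = 0.55 and Spearman's rho = 0.52, against 0.49 and 0.30 over all genes; genes are not independent replicates.

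The difference between the lines was tested itself, as the change in line B minus that in line A. None of the 31 passed, and none of the 19938 genes did (0.0%). At an unadjusted p under 0.05 stood 4 of the 31 (12.9%), against 2.83% of all genes, namely Mki67, Anln, Pttg1 and Cdc20. The difference was 0.42 (SE 0.13) for Mki67 (95% interval 0.11 to 0.72), 0.35 (SE 0.13) for Anln (0.04 to 0.65), 0.48 (SE 0.21) for Cdc20 (0.00 to 0.95) and -0.40 (SE 0.17) for Pttg1 (-0.78 to -0.03). The intervals of the other 27 hold 0, and their width does not show that the lines moved alike. The median difference of the 31 was 0.20.

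**Figure D4:**
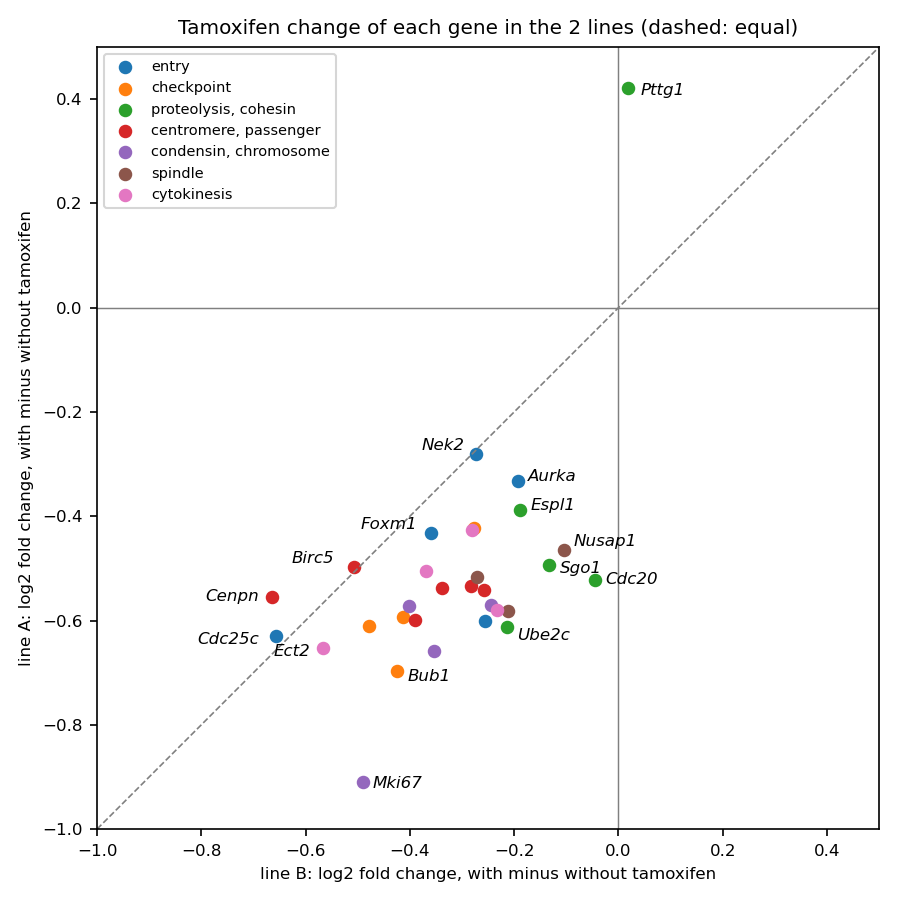
Log2 fold change with minus without tamoxifen in line B (horizontal) and in line A (vertical) for each of the 31 genes, coloured by role; the dashed line marks equal changes. Most points lie below the dashed line, that is, further down in line A, and Cdc20 lies near 0 in line B; with 2 samples a group no gene's difference between the lines passed the test.

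The lines were also set against each other at the same treatment. With tamoxifen, 28 of the 31 were higher in line B than in line A, as were 11489 of all 19938 genes. Cdc25c, Cenpn and Pttg1 were lower. The median difference, line B minus line A, was 0.17, against 0.02 over all genes; none passed in limma, where 0.351% of all genes were lower and 0.181% higher in line B, 0.532% together. At an unadjusted p under 0.05 stood 6 of the 31 (19.4%), against 6.72% of all genes. The largest differences were 0.43 (SE 0.15) for Cdc20 (adjusted p = 0.503 in limma) and 0.41 (SE 0.15) for Bub1 (adjusted p = 0.592). Without tamoxifen, 9 of the 31 were higher in line B than in line A, as were 10967 of all 19938 genes. The median difference was -0.05, against 0.01 over all genes. None passed in limma, where 0.14% of all genes were lower and 0.186% higher in line B, 0.326% together. None of the 31 stood at an unadjusted p under 0.05 without tamoxifen, against 5.2% of all genes. Line A with tamoxifen had the lowest of the 4 group means for 28 of the 31 genes and line B with tamoxifen for 2, Cdc25c and Cenpn. The lowest group was not counted over all genes. These comparisons share samples with those of tamoxifen within each line.

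In line B the samples of a group lay further apart than in line A. The median gap between the 2 samples of a group over the 31 genes was 0.20 with tamoxifen and 0.27 without it in line B, against 0.15 in each over all genes. In line A it was 0.06 with tamoxifen and 0.13 without it, against 0.08 with tamoxifen and 0.11 without it over all genes. The gaps ran in opposite directions in the pair with and the pair without tamoxifen for 22 of the 31 genes in line B (71.0%; 61.9% of all genes). Across the 31 genes, the gap with tamoxifen and the gap without it correlated at r = -0.82 and rho = -0.85 in line B, against -0.53 and -0.44 over all genes. In line A the values were 0.42 and 0.38 for the 31 genes and 0.03 and 0.03 over all genes. Replicates were numbered by accession only and are not paired. The sign of these correlations, and whether gaps count as opposite, therefore have no meaning of their own. All points of a line share the same 4 arrays.

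Under this numbering, genes with opposite gaps in line B fall into 2 sets by definition. Aurkb, Cdc20, Plk1, Ube2c, Foxm1, Espl1, Cenpa and Cenpn (8 genes) were higher in replicate 1 with tamoxifen and in replicate 2 without it, as were 30.8% of all genes. Bub1, Ttk, Mad2l1, Sgo1, Cenpe, Cenpf, Ncapg, Top2a, Nusap1, Hmmr, Prc1, Anln, Ect2 and Cdc25c (14 genes) ran the other way, as did 31.1% of all genes. Aurkb differed by 0.48 with tamoxifen and by -0.60 without it, replicate 1 minus replicate 2, and Plk1 by 0.40 with tamoxifen and -0.35 without it. Sgo1 differed by -0.47 with tamoxifen and by 0.71 without it, and Ncapg by -0.47 with tamoxifen and 0.44 without it. These spreads were as large as the median change with tamoxifen in line B, and their part in the line B results was not tested.

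**Figure D5:**
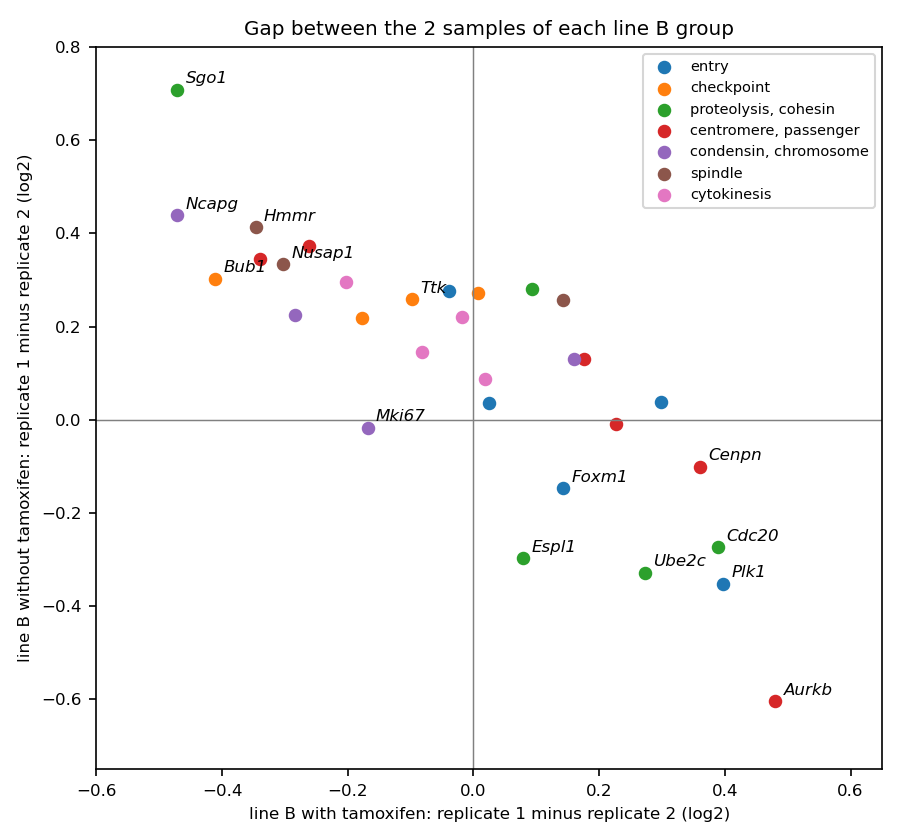
Gap between the 2 samples of a line B group, replicate 1 minus replicate 2 on the log2 scale, with tamoxifen (horizontal) and without it (vertical) for each of the 31 genes, coloured by role. Genes such as Sgo1 and Ncapg lie at the upper left and Aurkb, Plk1 and Cdc20 at the lower right.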

How the data were processed

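Per the series' design text, the authors extracted RNA, hybridised Affymetrix arrays and applied RMA with Affymetrix Expression Console, which gives the deposited log2 values; no version is given in the sources used here. Of 35556 probe sets, 21789 had 1 gene symbol, 1621 several and 12146 none; only the first kind was used, with the brightest probe set per gene, which left 19938 genes. Array files hold no read depth, so the number of arrays limits the precision. Groups came from the sample titles. limma 3.58.1 in R 4.3.3 (lmFit, eBayes) fitted the line and tamoxifen to all 8 samples, leaving 5 residual degrees of freedom. Contrasts within and between lines came from a model of 4 group means with 4. P-values were adjusted by Benjamini-Hochberg over all genes, with a threshold of 0.05. The script was tested on simulated data, where a pass was required only for changes of 1 on the log2 scale over both lines. That is larger than any change with tamoxifen among the 31 genes. Every one of the 31 genes is named. From the wider list of 107 genes, the 6 with the smallest p are named. The genes and lists were chosen with earlier results of these data known. The alternatives were a common median, repeated quantile normalisation, trend and robust eBayes, array weights and the mean of probe sets. Others were leaving out the dimmest 30% of genes, no line term, the line as a random block and leaving out each sample. Tests within or between the lines were also run on line A alone, line B alone, the samples with tamoxifen alone and those without it alone. Sequences are RefSeq's (GRCm38.p6).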

Additional observations from a re-analysis of the deposited data

Results flagged for a closer look

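Within the 4 samples of a treatment, 3 of 62 groups tested (31 genes, each with and without tamoxifen) held a sample whose distance to its nearest neighbour exceeded Dixon's 95% limit for 4 samples, as a share of their range; chance flags about 1 in 20 groups. All were line B samples with tamoxifen that stood above the other samples with tamoxifen. Each group of 4 holds samples of both lines, which the limit does not allow for, and the part of the line in these flags was not tested. Aurkb was at 8.65 in replicate 1 against 8.17 to 8.23 in the others (ratio 0.863). Ncapg was at 9.52 in replicate 2 against 9.05 to 9.10 (ratio 0.901). Ncaph was at 8.95 in replicate 1 against 8.79 to 8.80 (ratio 0.948).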

How the results depend on the processing

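No paired analysis was possible because the labels number no replicates within a group. Under 8 other settings of the fit over both lines, 9 to 14 of the 31 genes fell, except with array weights, where 27 fell, Pttg1 rose and the median change was -0.49; all genes called then numbered 983 against 263. Leaving out 1 sample gave 3 to 18 falls and a median change of -0.49 to -0.38. In line A, the count of 3 became 1 with arrays shifted to a common median and 8 after repeated quantile normalisation. It became 24 with array weights and 23 from the 4 line A samples alone, each of these 2 with 1 rise. Leaving out 1 sample gave 0 to 7. The line A counts over all genes under these settings are not given here. In line B, 0 fell under every setting, and the median change ran between -0.40 and -0.25 when 1 sample was left out. The tests between the lines called none of the 31 under any setting run. Of 496 single-gene values under alternatives over both lines, 408 kept their side of the threshold, 58 lost the call, 30 gained it and 0 reversed. Cdc20, Plk1 and Sgo1 passed under none. The cause of these shifts was not tested. Leaving out a sample lowers the residual degrees of freedom, whichever line it comes from. With 2 samples a group, small differences could not be resolved.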
